A study of Mus musculus with 8 samples.

Results

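The AP-1 family genes Fos, Fosb, Fosl2, Jun, Junb, Jund and Atf3 were examined in regulatory T (Treg) cells of WT and Foxp1-deficient mice. The rule takes the members by name and uses no measured value. Each of the 7 names matched 1 of the 27594 genes in the deposited table. RNA was sequenced from resting Treg (rTreg) cells, gated as CD4+YFP+ with low CD44 among the criteria, and from activated Treg (aTreg) cells, gated as CD4+YFP+ with high CD44 among the criteria. The cells came from spleen and peripheral lymph nodes of C57BL/6 mice aged 6 to 8 weeks. WT mice carried Foxp3-YFP-Cre alone, and Foxp1-deficient mice carried Foxp1fl/fl together with Foxp3-YFP-Cre. The WT controls thus have the Cre too. Foxp3 drives the Cre, so the deletion is aimed at cells that express Foxp3, and YFP marks those cells. This gave 4 groups, rTreg and aTreg cells of either genotype, with 2 replicate libraries in each. The labels do not say which or how many mice gave each library. The 2 libraries of each group differed in sex by the Xist counts given below, so they came from different mice. The p-values below measure only the spread between these libraries, part of which may be technical.

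AP-1 is a family of dimeric transcription factors. Each member has a basic region that contacts DNA and a leucine zipper that holds the dimer together. Fos proteins need a partner, usually a Jun protein, while Jun proteins also pair with themselves, and Atf3 pairs with Jun proteins or with itself. Fos, Fosb, Jun, Junb and Atf3 are immediate early genes, transcribed within minutes of a stimulus such as T cell receptor signaling or stress, and their mRNAs are short-lived. In T cells, AP-1 binds beside NFAT on cytokine genes, and Batf, a related leucine zipper protein, joins Jun proteins beside IRF4. Junb and Batf have known roles in activated Treg cells.

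The 8 libraries held between 6373170 and 15268623 counts. A level of 3 counts, taken as the floor, corresponded to between 0.192 and 0.478 CPM (counts scaled to library size and TMM-normalized). Such floors cover counting error only. Foxp3 was present in every library, between 429 and 646 CPM. The replicates of WT rTreg cells had 353 and 384 CPM of Foxp1, the targeted gene, and those of Foxp1-deficient rTreg cells 342 and 338. WT aTreg cells had 234 and 230 CPM, compared with 126 and 102 with Foxp1 deficiency. Foxp1 was called lower with Foxp1 deficiency in aTreg cells (log2 fold change -1.03, standard error 0.096, adjusted p = 0.00194) but not in rTreg cells (-0.12, standard error 0.094, adjusted p = 0.46). These counts cover the whole gene, including exons that a Cre deletion leaves in place, so they are no check of the deletion. The gate marker Cd44 separated the subsets in each genotype. It was between 29.6 and 45.3 CPM in rTreg cells and between 174 and 214 in aTreg cells. Each replicate 1 library had at most 3 counts of Xist, the RNA that coats the inactive X chromosome, and each replicate 2 library had 15098 to 21822. Sex and replicate number therefore cannot be told apart. The test was the quasi-likelihood F test of edgeR, with the replicate number as a block and Benjamini-Hochberg adjustment over 14540 genes. Calls needed an adjusted p-value under 0.05 together with a 1.5-fold change between genotypes or a 2-fold change between subsets.

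The members lie on 6 mouse chromosomes in the GENCODE M21 annotation of GRCm38. Fos (ENSMUSG00000021250) lies on chromosome 12 from 85473890 to 85477273 on the plus strand, and Fosb (ENSMUSG00000003545) on chromosome 7 from 19302696 to 19310051 on the minus strand. Fosl2 (ENSMUSG00000029135) lies on chromosome 5 from 32135801 to 32157842 on the plus strand, and Jun (ENSMUSG00000052684), a gene of 1 exon, on chromosome 4 from 95049034 to 95052222 on the minus strand. Junb (ENSMUSG00000052837) and Jund (ENSMUSG00000071076) share chromosome 8, the former from 84974484 to 84978718 on the minus strand and the latter from 70698949 to 70700616 on the plus strand. Atf3 (ENSMUSG00000026628) lies on chromosome 1 from 191170296 to 191218039 on the minus strand. The library kit does not mark strand, so reads in exons shared with a gene on the opposite strand cannot be told apart. Exons of other genes overlapped 232 exon bases of Jun (the antisense gene Junos, with 2 to 11 counts per library), 173 of Junb (Prdx2, with 373 to 996 counts) and 877 of the 1668 of Jund (the antisense gene Gm11175, not analysed here). Values of Jund are uncertain for this reason. Fos, Fosb, Fosl2 and Atf3 overlapped no annotated gene.

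Promoters are shown for Fos, Fosb, Jun and Junb, the 4 members whose RefSeq start lay within 30 bases of the GENCODE start. Each sequence holds the 250 bases before the RefSeq start on GRCm38.p6, written in the direction of the gene, with matches to the motifs searched in capitals. The motifs, looked for on both strands, were the AP-1 site TGACTCA, the core of the cyclic AMP response element (CRE) TGACGT, the Jun-type CRE TGACATC, the forkhead site GTAAACA, the TATA box TATAAA and the CArG box that serum response factor binds.
Fos, chr12:85473640-85473889, plus strand: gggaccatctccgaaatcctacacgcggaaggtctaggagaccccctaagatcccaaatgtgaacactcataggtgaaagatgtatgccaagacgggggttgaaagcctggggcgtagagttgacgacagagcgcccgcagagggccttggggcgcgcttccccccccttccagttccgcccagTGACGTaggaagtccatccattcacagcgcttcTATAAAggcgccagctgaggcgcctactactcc
Fosb, chr7:19310046-19310295, minus strand: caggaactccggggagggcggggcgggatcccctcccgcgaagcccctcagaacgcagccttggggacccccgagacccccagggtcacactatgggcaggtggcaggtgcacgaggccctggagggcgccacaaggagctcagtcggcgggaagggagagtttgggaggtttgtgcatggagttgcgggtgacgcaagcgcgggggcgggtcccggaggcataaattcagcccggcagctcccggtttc
Jun, chr4:95052223-95052472, minus strand: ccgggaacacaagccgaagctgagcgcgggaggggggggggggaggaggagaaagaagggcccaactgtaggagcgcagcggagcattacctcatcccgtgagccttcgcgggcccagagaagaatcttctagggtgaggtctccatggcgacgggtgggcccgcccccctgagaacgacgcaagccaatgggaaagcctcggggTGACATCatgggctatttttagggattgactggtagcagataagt
Junb, chr8:84978749-84978998, minus strand: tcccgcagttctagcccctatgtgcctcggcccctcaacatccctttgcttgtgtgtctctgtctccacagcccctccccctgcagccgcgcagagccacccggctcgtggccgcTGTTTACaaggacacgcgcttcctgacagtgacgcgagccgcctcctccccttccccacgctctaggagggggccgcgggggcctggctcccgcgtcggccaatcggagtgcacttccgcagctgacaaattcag
The Fos sequence held the CRE core from 66 to 61 bases before the start and a TATA box from 33 to 28 bases before it. The Jun sequence held the Jun-type CRE from 45 to 39 bases before the start, and the Junb sequence held a forkhead site on the opposite strand from 135 to 129 bases before it. The Fosb window held none of these letters. Atf3 held the CRE core on the opposite strand from 8 to 3 bases before its RefSeq start, and the windows of Fosl2 and Jund held none of the motifs. The RefSeq starts of Fosl2, Jund and Atf3 lay farther from the GENCODE starts. Of 32851 RefSeq promoters of this length, 4.46% held the AP-1 site, 6.47% the CRE core, 4.83% the Jun-type CRE, 3.17% the forkhead site, 12.4% the TATA box and 1.47% the CArG box. These matches describe the letters only, and no binding was measured.

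Levels of different genes were compared as FPKM, the deposited values per kilobase of exon. Junb had the highest FPKM of the family in 8 of 8 libraries, between 253 and 1089, and its group means lay above at least 99.6% of the genes tested in each group. Fos followed with 70.3 to 248 FPKM and Jun with 38.3 to 198 FPKM. The order of Fos and Jun was not fixed. The FPKM of Fos was above that of Jun in all 4 aTreg libraries and in 2 of the 4 rTreg libraries. Jund, a member known for steadier transcription, had 36.8 to 64.1 FPKM. Fosb varied most among the 5 genes above 4 FPKM in every library, from 4.92 to 75.6 FPKM. Fosl2 stood far lower, between 0.988 and 3.87 FPKM. Atf3 was the lowest in 8 of 8 libraries, between 0 and 1.80 FPKM. Together the 3 Fos genes summed to 76.7 to 326 FPKM and the 3 Jun genes to 365 to 1308 FPKM, so the Jun sum was 3.62 to 5.12 times the Fos sum in each library.

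**Figure D1:**
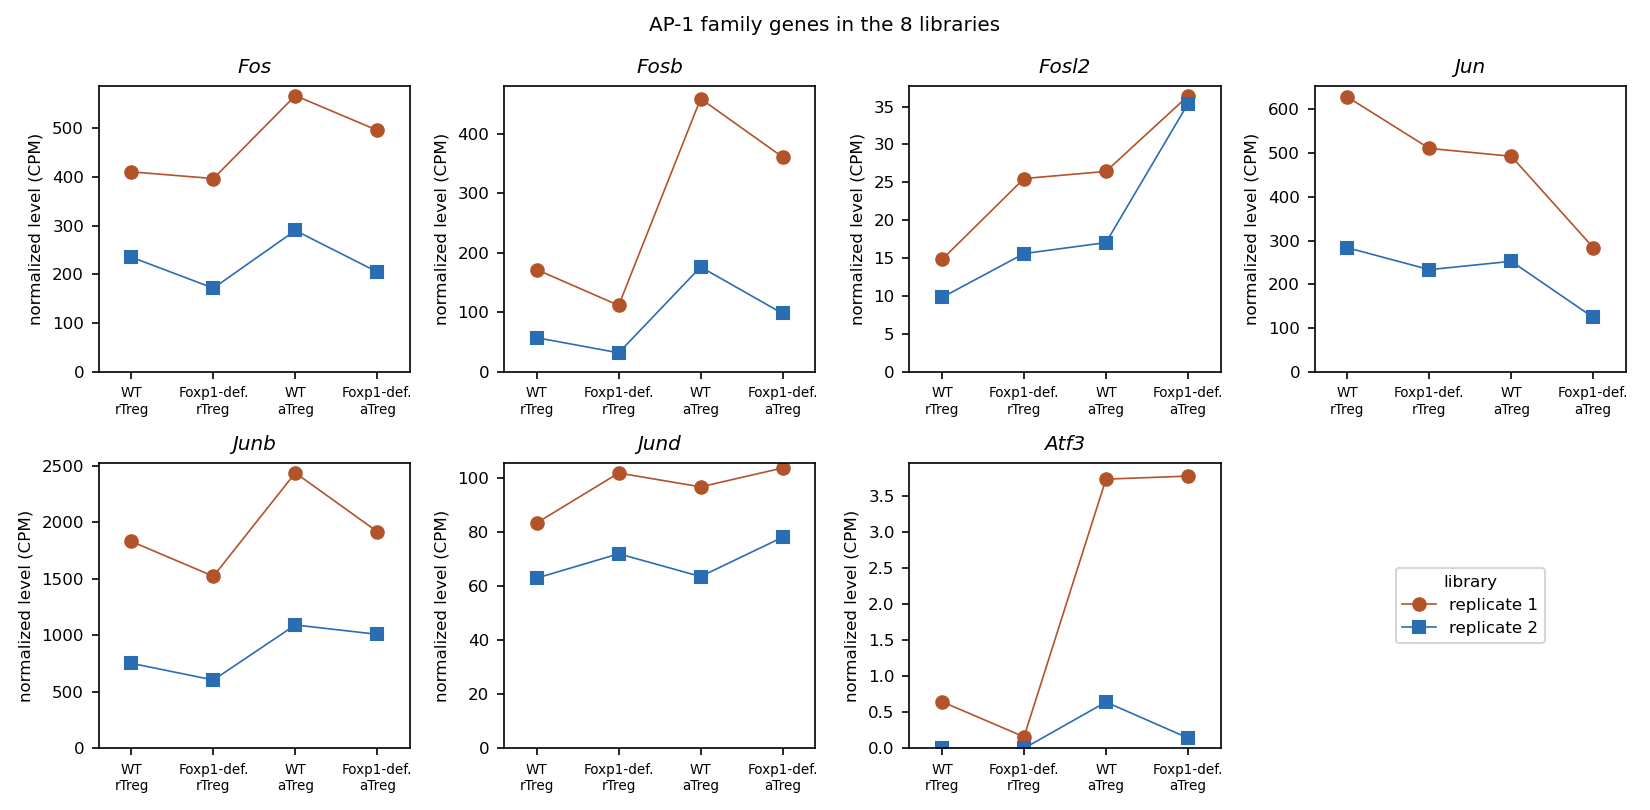
Normalized level in CPM of each AP-1 member in the 8 libraries, by group, with lines joining the libraries of the same replicate number. Replicate 1 lay above replicate 2 for every member in every group, and each vertical axis starts at 0.

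The libraries of replicate 1 stood apart from those of replicate 2 in this family. All 7 members were higher in replicate 1 in all 4 groups, a pattern chosen for testing after the values were seen. How many of all genes tested had this pattern, or a ratio above 0, was not counted. The fitted ratios of the members lay above those of 87.4% (Fosl2) to 99.7% (Atf3) of all genes tested. Of the 7 members, 5 were called higher in replicate 1 at 1.5-fold, where 6.13% of all genes tested were called, 4.72% higher and 1.41% lower. The median log2 ratio of the members was 1.11. Fosb, a Fos paralog that also has a truncated isoform, differed by 1.66 on the log2 scale (standard error 0.083, adjusted p = 6.89e-05), a 3.15-fold difference. Junb differed by 1.18 (standard error 0.064, adjusted p = 8.89e-05), Jun by 1.11 (standard error 0.048, adjusted p = 3.27e-05) and Fos by 1.06 (standard error 0.077, adjusted p = 0.000394). Within single groups the log2 ratio of replicate 1 to replicate 2 was 0.80 to 1.27 for Fos, 1.38 to 1.88 for Fosb, 0.96 to 1.19 for Jun and 0.93 to 1.33 for Junb. Atf3 had 7, 1, 34 and 45 counts in the replicate 1 libraries, taking rTreg cells first and WT before Foxp1-deficient cells in each subset, against 0, 0, 10 and 2 in replicate 2 (adjusted p = 0.00501). It passed the filter on low counts only through the replicate 1 libraries of aTreg cells, so its call here carries no independent weight. Fosl2 (0.47, standard error 0.12, adjusted p = 0.036) and Jund (0.48, standard error 0.05, adjusted p = 0.00159) passed the test but not the 1.5-fold threshold. The Fosl2 ratio was 0.59 to 0.71 in 3 groups and 0.041 in Foxp1-deficient aTreg cells.

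Other immediate early genes were also higher in replicate 1. Of 17 such genes from other families, 6 were called higher and none lower, and 15 had ratios above 0. The called genes with the largest ratios were Nr4a2 (log2 ratio 3.06), a nuclear receptor, Dusp1 (1.96), a phosphatase that inactivates MAP kinases, Klf4 (1.83), a zinc finger factor, and Nr4a1 (1.79), a nuclear receptor induced by T cell receptor signals. Not every gene of the class showed this. Egr1 had a ratio of -0.0015 and Egr2 of -0.15, and neither was called. Among 20 other leucine zipper genes tested, Maff (3.08), Nfil3 (1.66), Cebpb (1.36) and Mafk (0.77) were called higher in replicate 1 and none lower. None of 15 MAP kinase genes was called by edgeR, with 2 at an unadjusted p-value under 0.05. Of 11 heat shock genes, 10 had ratios below 0, and Hspa1b (-1.78) and Hsph1 (-1.51), both chaperones, were called lower in replicate 1. Hsp90aa1 had a ratio of -1.80 and was not called. In replicate 1 of Foxp1-deficient rTreg and aTreg cells it had 139 and 322 counts, against 2906 to 5353 in the other libraries. Hspa1b had 15 and 40 counts in these 2 libraries, against 82 to 455 in the others. These ratios thus differed between the genotypes. Of 16 tested genes with known links to AP-1 in T cells, 6 were called higher in replicate 1, led by Il10 (1.86), Areg (1.81) and Ccr8 (1.57), and 1, Il1rl1 (-0.79), was called lower. Of 5 myeloid marker genes tested, S100a8 (2.12) and S100a9 (2.41) were called higher in replicate 1. In Foxp1-deficient aTreg cells they had 85 and 109 counts in replicate 1, against 9 and 9 in replicate 2. In WT aTreg cells S100a8 had 6 counts in replicate 1 and 10 in replicate 2, and S100a9 had 15 and 14. In rTreg cells both had 2 and 0 counts in WT libraries, and with Foxp1 deficiency S100a8 had 18 and 12 and S100a9 21 and 11. The part of myeloid cells in the members' values was not tested. In these sorted bulk samples, fewer cells of a type and less RNA per cell cannot be told apart. The study mentions 2 rounds of sequencing, which the labels do not tie to the replicate numbers, and its methods name a paired analysis against a batch effect. The replicate difference of Fos, Fosb, Jun and Junb exceeded the genotype difference of the same gene in either subset, and each comparison below was made within replicates, as in the study.

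**Figure D2:**
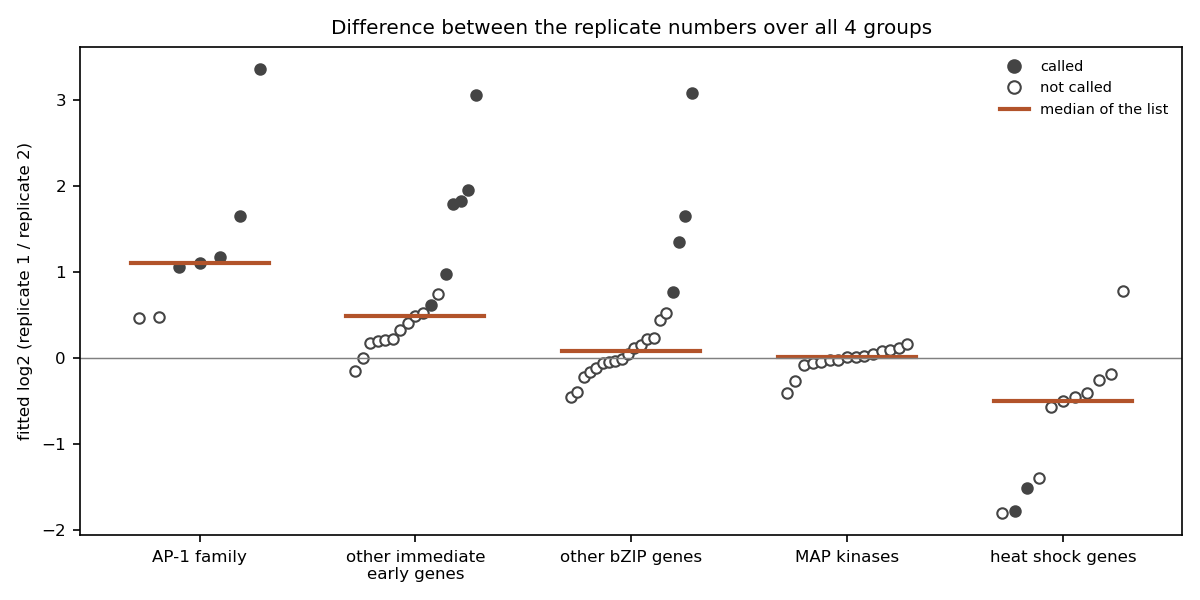
Fitted log2 ratio of replicate 1 to replicate 2 over all 4 groups for each tested gene of 5 lists, with filled circles for called genes, open circles for genes not called and a bar at the median of each list. The AP-1 members all lie above 0 with a median of 1.11, the MAP kinases lie around 0, and 10 of the 11 heat shock genes lie below 0.

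In rTreg cells, Fosb was lower and Fosl2 was higher with Foxp1 deficiency. Of the 7 members, 1 was called higher and 1 lower, where 5.6% of all genes tested were called, 2.9% higher and 2.7% lower. The median log2 fold change was -0.29 over the members and 0.0029 over all genes tested. Fosb was 172 CPM in replicate 1 and 57.3 in replicate 2 of WT rTreg cells, compared with 112 and 31.9 CPM with Foxp1 deficiency. It fell within each replicate, although the groups overlapped across replicates. The fitted log2 ratio was -0.73 (standard error 0.12, adjusted p = 0.0102), and the pairs gave -0.62 and -0.84. Fosl2, which encodes Fra-2, a Fos protein without the strong activation domain of Fos, was 14.8 and 9.82 CPM in WT cells and 25.5 and 15.6 in Foxp1-deficient cells. The 2 Foxp1-deficient values lay above both WT values. The fitted log2 ratio was 0.72 (standard error 0.18, adjusted p = 0.0445), with 0.78 and 0.67 in the pairs.

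The other members did not pass both thresholds in rTreg cells. Jun was 628 and 284 CPM in WT cells and 511 and 234 in Foxp1-deficient cells, a fitted log2 ratio of -0.29 in the fit that passed the test (standard error 0.067, adjusted p = 0.0316) but was under 1.5-fold. Junb was 1830 and 752 CPM in WT cells and 1522 and 604 in Foxp1-deficient cells (-0.29, standard error 0.089, adjusted p = 0.0758). Fos was 410 and 235 CPM in WT cells and 397 and 172 in Foxp1-deficient cells (-0.25, standard error 0.11, adjusted p = 0.171). For Fos, Jun and Junb each pair gave a value below 0. Jund was 83.5 and 63.1 CPM in WT cells and 102 and 72.1 in Foxp1-deficient cells (0.24, standard error 0.072, adjusted p = 0.0699). Atf3 had 7 and 0 counts in WT cells and 1 and 0 in Foxp1-deficient cells, too few to show a difference, with a ratio of 0.167 and a 95% counting interval from 0.0037 to 1.30. Atf3 passed the filter on low counts only through the replicate 1 libraries of aTreg cells.

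The rTreg calls rested on the pairing. Without the block neither Fosb (adjusted p = 0.767) nor Fosl2 (adjusted p = 0.312) was called. The call of Fosl2 was lost without any of the 4 rTreg libraries or without WT aTreg replicate 1 (adjusted p = 0.0511 to 0.229), and that of Fosb without WT rTreg replicate 2 or either Foxp1-deficient rTreg library (adjusted p = 0.0543 to 0.122). The 9 myeloid marker genes summed to 1.18 and 2.39 CPM in WT rTreg cells and to 5.99 and 17.2 CPM in Foxp1-deficient rTreg cells. S100a8, S100a9 and Mpo were called higher. Mpo had 0 and 0 counts in WT rTreg cells, against 25 and 36 with Foxp1 deficiency, and S100a8 had 2 and 0, against 18 and 12. S100a8 and Mpo passed the filter on low counts only through Foxp1-deficient libraries, so their calls on that side carry no independent weight. Csf1r had 2 to 4 counts in the 4 libraries, and between 0 and 5 of the 9 genes were at 0 in a library. The part of such cells in these differences was not tested.

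In aTreg cells, Jun and Fosb were lower and Fosl2 was higher with Foxp1 deficiency. Of the 7 members, 1 was called higher and 2 lower, where 4.03% of all genes tested were called, 2.37% higher and 1.66% lower. The median log2 fold change was -0.34 over the members and 0.0018 over all genes tested. Jun, the cellular counterpart of a viral oncogene, was 493 and 253 CPM in WT aTreg cells, compared with 284 and 124 with Foxp1 deficiency. It fell in each pair, by 0.79 and 1.02 on the log2 scale, although Foxp1-deficient replicate 1 stayed above WT replicate 2. The fitted log2 ratio was -0.91 (standard error 0.067, adjusted p = 0.000873), a level of 0.532 times that in WT cells. Fosb was 459 and 176 CPM in WT cells and 361 and 98.0 in Foxp1-deficient cells. The fitted log2 ratio was -0.59 (standard error 0.11, adjusted p = 0.0239), with -0.35 in the first pair and -0.85 in the second, and lay at the 1.5-fold threshold. Fosl2 was 26.4 and 17.1 CPM in WT cells and 36.4 and 35.4 in Foxp1-deficient cells, so the groups did not overlap. The fitted log2 ratio was 0.77 (standard error 0.16, adjusted p = 0.0346), with 0.46 and 1.05 in the pairs.

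The remaining members gave smaller values in aTreg cells. Fos was 567 and 290 CPM in WT cells and 496 and 205 in Foxp1-deficient cells (log2 fold change -0.34, standard error 0.11, adjusted p = 0.106). Junb was 2437 and 1091 CPM in WT cells and 1917 and 1009 in Foxp1-deficient cells (-0.22, standard error 0.089, adjusted p = 0.178). Jund was 96.9 and 63.7 CPM in WT cells and 104 and 78.2 in Foxp1-deficient cells (0.20, standard error 0.07, adjusted p = 0.14). The 95% interval of the log2 fold change was -0.59 to -0.092 for Fos, -0.43 to -0.019 for Junb and 0.035 to 0.36 for Jund. Atf3 had 34 and 10 counts in WT cells and 45 and 2 in Foxp1-deficient cells. The fitted log2 ratio of Atf3 was -0.42 (95% interval -1.55 to 0.71, adjusted p = 0.667), with 0.011 and -1.91 in the pairs. Its ratio over the summed counts was 1.02, with a 95% counting interval from 0.663 to 1.58. That interval leaves out the spread between the replicates, so it does not show that Atf3 was unchanged.

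The call of Jun in aTreg cells was kept in 17 of 19 alternative settings and was lost without the block (adjusted p = 0.639) and on log2 FPKM values with no filter. Fosb and Fosl2 each kept the call in 7 of 19. Without the block the adjusted p was 0.912 for Fosb and 0.39 for Fosl2. The call of Fosb was lost without WT aTreg replicate 2, Foxp1-deficient aTreg replicate 2 or either Foxp1-deficient rTreg library (adjusted p = 0.053 to 0.202), and that of Fosl2 without any library other than Foxp1-deficient aTreg replicate 1 (adjusted p = 0.0521 to 0.229). Here the 9 myeloid marker genes summed to 5.26 and 5.92 CPM in WT cells and to 4.82 and 29.3 in Foxp1-deficient cells, with the highest sum in replicate 1. Mpo, with 3 and 4 counts in WT cells and 68 and 14 in Foxp1-deficient cells, was called higher. It passed the filter on low counts only through Foxp1-deficient libraries, so its call carries no independent weight. At most 1 of the 9 genes was at 0 in a library. The part of such cells in these differences was not tested.

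**Figure D3:**
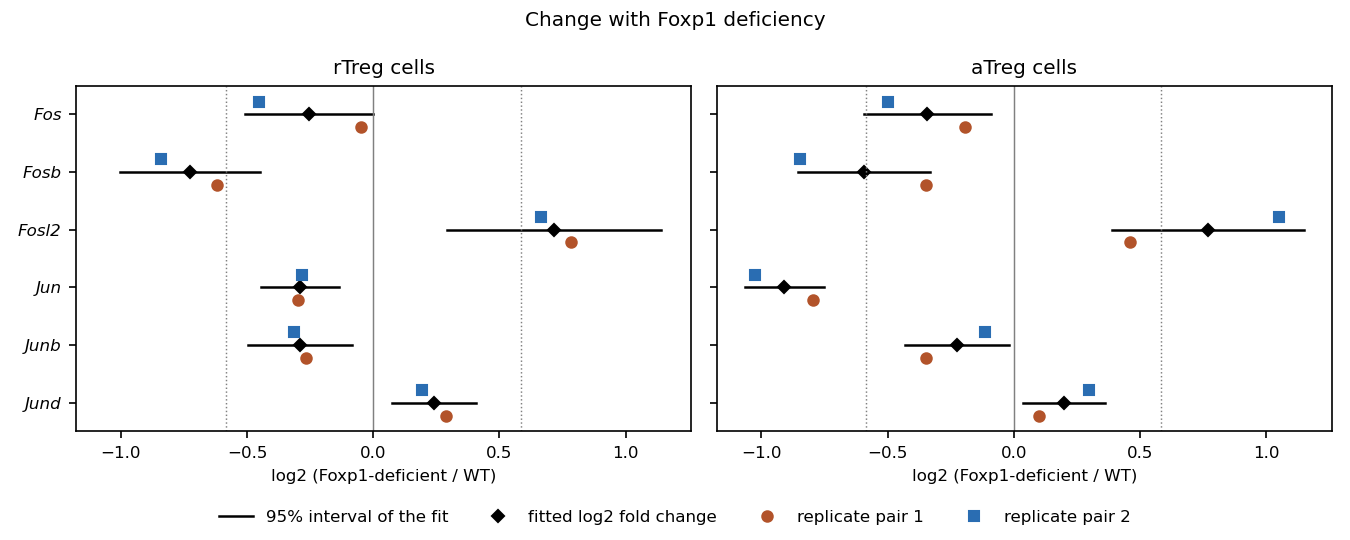
Log2 ratio of Foxp1-deficient to WT cells for 6 AP-1 members in rTreg cells (left) and aTreg cells (right), with circles and squares for the replicate pairs, diamonds for the fitted log2 fold change, bars for its 95% interval and dotted lines at 1.5-fold. Atf3 is left out for its low counts. Fosb lies below 0 and Fosl2 above 0 in each pair of both subsets, and Jun lies at -0.29 in rTreg cells and at -0.91 in aTreg cells.

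Whether the effect of Foxp1 deficiency differed between the subsets was tested as an interaction in the same fit. At an adjusted p-value under 0.05 with edgeR, 0 of the 7 members differed, where 0.33% of all genes tested were called, and 1 member, Jun, had an unadjusted p-value under 0.05. For Jun the effect in aTreg cells minus that in rTreg cells was -0.62 on the log2 scale (standard error 0.094, 95% interval -0.84 to -0.40, unadjusted p = 0.000205, adjusted p = 0.0531). The pairs gave -0.50 and -0.74. DESeq2 (adjusted p = 3.04e-05), limma-voom (0.0495), limma-voom with sample weights (0.0444) and edgeR without a filter (0.000191) called Jun alone among the members. Counting every alternative setting of this value, Jun was called in only 5 of 18. Over all genes, DESeq2 called 280, limma-voom 43 and limma-voom with sample weights 54 of 14540, against 48 in the main fit. Without a filter edgeR called 573 of 27594. Over all alternatives of this value the adjusted p ran from 3.04e-05 to 1 and the log2 difference from -0.72 to -0.52. The difference was 0.13 for Fosb (95% interval -0.25 to 0.51), 0.053 for Fosl2 (-0.52 to 0.62), -0.088 for Fos (-0.44 to 0.27), 0.064 for Junb (-0.23 to 0.36) and -0.042 for Jund (-0.27 to 0.19).

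Between the WT subsets, Fosb was higher in aTreg cells, and Atf3 was called higher from few counts. Of the 7 members, 2 were called higher and 0 lower at 2-fold, where 12.3% of all genes tested were called, 9.5% higher and 2.83% lower. The median log2 fold change was 0.47 over the members and -0.0046 over all genes tested. Fosb was 172 and 57.3 CPM in WT rTreg cells and 459 and 176 in WT aTreg cells. Both aTreg values lay above both rTreg values. The fitted log2 ratio was 1.53 (standard error 0.12, adjusted p = 7.9e-05), a 2.88-fold difference. Atf3, a stress-induced factor of the ATF branch, had 7 and 0 counts in rTreg cells, against 34 and 10 in aTreg cells (adjusted p = 0.0123). It passed the filter on low counts only through the replicate 1 aTreg libraries, so a call on that side carries no independent weight. Over the summed counts its CPM was 6.00 times higher in aTreg cells, with a 95% counting interval from 2.68 to 15.8. The Atf3 call was lost without WT rTreg replicate 1 (adjusted p = 0.11), which held all 7 of the rTreg counts.

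The other WT members changed by less than 2-fold or not detectably. Fosl2 was 14.8 and 9.82 CPM in rTreg cells, against 26.4 and 17.1 in aTreg cells (log2 fold change 0.81, standard error 0.18, adjusted p = 0.011). Junb was 1830 and 752 CPM in rTreg cells, against 2437 and 1091 in aTreg cells (0.47, standard error 0.089, adjusted p = 0.00542). Fos was 410 and 235 CPM in rTreg cells, against 567 and 290 in aTreg cells (0.38, standard error 0.11, adjusted p = 0.0312). These 3 genes passed the test with the higher value in aTreg cells of both pairs, and none reached 2-fold. Jun differed in the other direction, at 628 and 284 CPM in rTreg cells, against 493 and 253 in aTreg cells (-0.26, standard error 0.066, adjusted p = 0.0215). Jund was 83.5 and 63.1 CPM in rTreg cells, against 96.9 and 63.7 in aTreg cells (0.11, standard error 0.071, adjusted p = 0.264).

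Between the Foxp1-deficient subsets the same 2 members were called higher, 0 were called lower, and Jun passed the test below 2-fold with the lower level in aTreg cells. Over all genes tested 15.7% were called, 11.3% higher and 4.39% lower, and the median log2 fold change was -0.018, against 0.54 over the members. Fosb was 112 and 31.9 CPM in Foxp1-deficient rTreg cells, against 361 and 98.0 in Foxp1-deficient aTreg cells, a fitted log2 ratio of 1.66 (standard error 0.12, adjusted p = 3.96e-05) and a 3.16-fold difference. Here too Atf3 was tested only through the replicate 1 aTreg libraries, with the same limit on its call. Atf3 had 1 and 0 counts in rTreg cells, against 45 and 2 in aTreg cells (adjusted p = 0.00899), a ratio of 36.6 with a 95% counting interval from 6.26 to 1476. Nearly all of these counts were in Foxp1-deficient aTreg replicate 1, and the call was lost without that library (adjusted p = 0.255) or without Foxp1-deficient rTreg replicate 1 (adjusted p = 0.154). Jun was 511 and 234 CPM in rTreg cells, against 284 and 124 in aTreg cells. It passed the test (log2 fold change -0.88, standard error 0.067, adjusted p = 5.29e-05) but stayed under 2-fold, with -0.85 and -0.91 in the pairs.

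Fosl2 was 25.5 and 15.6 CPM in Foxp1-deficient rTreg cells, against 36.4 and 35.4 in Foxp1-deficient aTreg cells (log2 fold change 0.86, standard error 0.17, adjusted p = 0.00499), and it passed 2-fold as well without replicate 1 of either Foxp1-deficient group (adjusted p = 0.0179 and 0.00129). Junb was 1522 and 604 CPM in rTreg cells, against 1917 and 1009 in aTreg cells (0.54, standard error 0.089, adjusted p = 0.00226). Fos was 397 and 172 CPM in rTreg cells, against 496 and 205 in aTreg cells (0.29, standard error 0.11, adjusted p = 0.0653). Jund was 102 and 72.1 CPM in rTreg cells, against 104 and 78.2 in aTreg cells (0.072, standard error 0.071, adjusted p = 0.456). The WT and Foxp1-deficient subset comparisons share no library. Without the block Fosb and Atf3 were not called in either genotype (adjusted p = 0.179 to 0.343). The 6 B cell marker genes summed to 7.92 to 9.56 CPM in rTreg cells and 18.4 to 21.2 CPM in aTreg cells, with Cd79b and Pax5 called higher in aTreg cells. Cd79a, the other tested gene of this list, was not called (log2 fold change -0.36 in WT and -0.66 in Foxp1-deficient cells), and Ms4a1 had at most 4 counts in any library. The myeloid marker S100a9 was called higher in WT aTreg than in WT rTreg cells, and the 6 erythroid marker genes summed to 0.867 to 4.30 CPM over the 8 libraries. The 5 NK and CD8 T cell marker genes summed to 12.9 to 16.7 CPM in rTreg cells and 8.70 to 14.2 CPM in aTreg cells, with Klrb1c called higher in aTreg cells. Cd8b1, the other tested gene of this list, passed the test in the other direction under 2-fold, with -0.64 in WT cells (adjusted p = 0.012) and -0.95 in Foxp1-deficient cells (adjusted p = 0.00168). Pax5 and Klrb1c had at most 5 counts in any rTreg library and passed the filter through aTreg libraries alone. The part of B, myeloid, erythroid, NK and CD8 T cells in the subset differences was not tested.

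**Figure D4:**
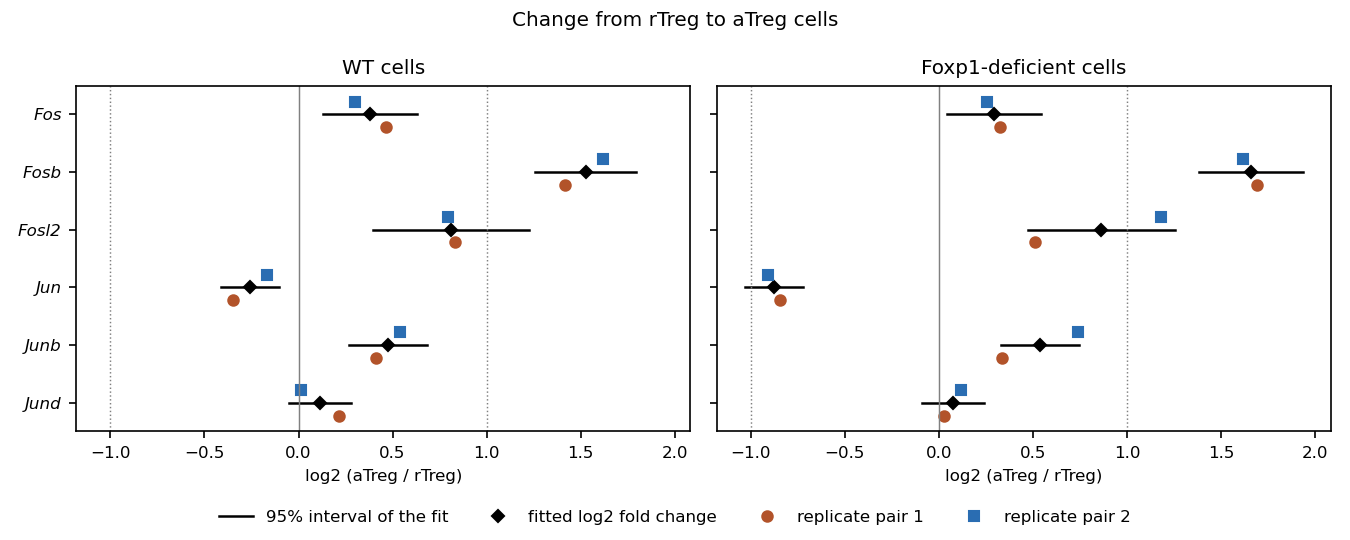
Log2 ratio of aTreg to rTreg cells for 6 AP-1 members in WT cells (left) and Foxp1-deficient cells (right), with circles and squares for the replicate pairs, diamonds for the fitted log2 fold change, bars for its 95% interval and dotted lines at 2-fold. Atf3 is left out for its low counts. Fosb lies beyond 2-fold in each pair of both genotypes, and Jun is the member below 0 in every pair, at -0.26 in WT cells and -0.88 in Foxp1-deficient cells.

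Ratios of paralogs within a library do not depend on library scaling and are given here as a description of the same values. In FPKM, Junb was 4.04 and 3.67 times Jun in the WT rTreg libraries and 4.13 and 3.59 times Jun in the Foxp1-deficient rTreg libraries. That ratio was 6.85 and 5.99 in WT aTreg libraries and reached 9.35 and 11.2 in Foxp1-deficient aTreg libraries. Replicates thus gave close ratios, and the 4 groups fell into rTreg, WT aTreg and Foxp1-deficient aTreg without overlap. Junb is known as a weaker activator than Jun on single AP-1 sites and can oppose it. Junb made up 69.3% to 76.3% of the summed FPKM of the 3 Jun genes in rTreg cells and 80.2% to 84.6% in aTreg cells. The FPKM of Fosb was 0.158 and 0.0917 times that of Fos in WT rTreg libraries, and 0.106 and 0.0701 times with Foxp1 deficiency. In aTreg libraries it was 0.305 and 0.229 times Fos for WT cells, and 0.274 and 0.18 times with Foxp1 deficiency. In each replicate the ratio of Fosb to Fos was higher in aTreg than in rTreg cells, and within a subset it was below WT in the Foxp1-deficient library.

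**Figure D5:**
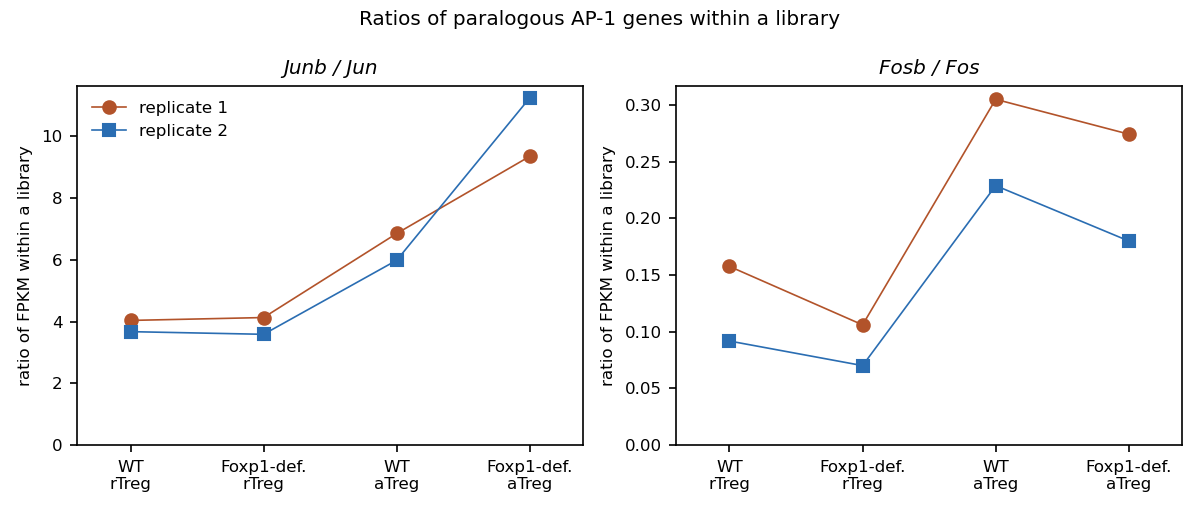
Ratio of the FPKM of Junb to that of Jun (left) and of Fosb to that of Fos (right) within each library, by group, with lines joining the libraries of the same replicate number. The ratio of Junb to Jun lies between 3.59 and 4.13 in rTreg cells, at 5.99 and 6.85 for WT aTreg cells, then at 9.35 and 11.2 for Foxp1-deficient aTreg cells.

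AP-1 dimers also form with other basic leucine zipper proteins, which compete for partners or sites. Of 22 such genes, 20 were tested. For this list and those that follow, the shares of all genes tested that were called were 5.6% between genotypes in rTreg cells, 4.03% between genotypes in aTreg cells, 12.3% between WT subsets and 15.7% between Foxp1-deficient subsets. With Foxp1 deficiency in rTreg cells, Cebpb (log2 fold change 0.69, adjusted p = 0.019) was called higher and Maf (-0.90, adjusted p = 0.00639), a regulator of Il10, was called lower. In aTreg cells 0 were called higher and 1, Bach2 (-1.25, adjusted p = 0.00347), a repressor that competes for AP-1 sites, was called lower. Between WT subsets 5 were called higher in aTreg cells and 1 lower. Jdp2 (4.51), which represses AP-1, Maf (3.84), Nfil3 (2.70) and Batf (1.79) had the largest increases, and Bach2 (-1.53) was lower. Between Foxp1-deficient subsets 7 were called higher and 2 lower, led by Maf (4.88), Jdp2 (4.59), Nfil3 (3.396) and Bach2 (-2.51). The adjusted p-values of the named genes in the subset comparisons were at most 0.000544. Jdp2 had 0 to 5 counts in the rTreg libraries and passed the filter through aTreg libraries alone, so its calls carry no independent weight.

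MAP kinases phosphorylate Jun and Fos proteins and act upstream of their genes. Of 15 MAP kinase pathway genes, Map2k6, an activator of p38, was called higher with Foxp1 deficiency in rTreg cells (log2 fold change 0.76, adjusted p = 0.00485) and in aTreg cells (1.19, adjusted p = 0.00141), and none was called lower. Between subsets none was called in WT cells (5 at an unadjusted p-value under 0.05), and Map2k3, another activator of p38, was called higher in Foxp1-deficient aTreg cells (1.21, adjusted p = 5.6e-05). With edgeR, 0 of 6 tested genes for ubiquitin ligases and cofactors of Jun proteins and 0 of 6 tested serum response factor genes were called in any genotype or subset comparison, with 0 to 2 and 2 to 4 of them at an unadjusted p-value under 0.05 in a single comparison.

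Among 17 immediate early genes of other families, Dusp1 was called lower with Foxp1 deficiency in rTreg cells (log2 fold change -0.62, adjusted p = 0.0201) and in aTreg cells (-0.63, adjusted p = 0.0263). Dusp2 (-0.66, adjusted p = 0.00683) was called lower in rTreg cells and Ier3 (2.78, adjusted p = 0.0474) higher in aTreg cells. Ier3 had 1 to 3 counts in the WT libraries, at or under the floor, and 7 to 20 in the Foxp1-deficient libraries. It passed the filter through the latter alone, so its call on that side carries no independent weight. The median log2 fold change of this list was -0.21 for rTreg and -0.16 for aTreg cells, with 5 and 1 of 17 values above 0. Between WT subsets 3 were called higher in aTreg cells, which were Nr4a2 (1.94), Klf4 (1.56) and Egr2 (1.32), and 0 lower. In Foxp1-deficient cells 4 were called higher and 1 lower, with Nr4a2 (2.07), Egr2 (1.82), Egr3 (1.13) and Myc (-1.13) furthest from 0.

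Genes with known AP-1 sites or links in T cells were tested as a list of 19, of which 16 passed the filter. Cd44, a gate marker, is among them. The subsets were gated on CD44, so its call between subsets adds no support to the counts below. In rTreg cells 0 were called higher with Foxp1 deficiency, and Il1rl1 (log2 fold change -1.94, adjusted p = 0.00523), the receptor for IL-33, and Ctla4 (-0.88, adjusted p = 0.000887), an inhibitory receptor, were called lower. In aTreg cells 0 were called lower, and Klrg1 (1.15, adjusted p = 0.00282), Il1rl1 (0.91, adjusted p = 0.00524) and Vim (0.66, adjusted p = 0.00638) were called higher. Il1rl1 was the member of the list called for a difference between the genotype effects (2.84, adjusted p = 0.0203). Between subsets 13 of 16 were called higher in aTreg cells in each genotype and 0 lower, where 9.5% of all genes tested were called higher in WT cells and 11.3% in Foxp1-deficient cells. Il10, Klrg1, Ifng and Gzmb had at most 5 counts in any rTreg library and passed the filter through aTreg libraries alone. Only a call in that direction was open to them, so they add no support to the count, and their fold changes are imprecise. Il10 (8.71), Klrg1 (8.02), Ifng (5.35) and Itgae (5.26) came first in WT cells. Klrg1 (9.45), Ifng (7.25), Il1rl1 (6.48) and Itgae (6.24) came first in Foxp1-deficient cells. Of 11 heat shock genes, Hspb1 was called higher in aTreg cells of WT mice (2.01, adjusted p = 0.0271) and of Foxp1-deficient mice (3.08, adjusted p = 0.0184). It had at most 5 counts in any rTreg library and passed the filter through aTreg libraries alone. None was called between genotypes, with 1 and 1 at an unadjusted p-value under 0.05 in rTreg and aTreg cells. Hsp90aa1, low in the replicate 1 Foxp1-deficient libraries alone, had genotype log2 fold changes of -1.56 in rTreg and -1.72 in aTreg cells.

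Within the family the members did not all vary alike over the 8 libraries. On log2 CPM, Pearson's r was 0.96 between Fos and Junb, 0.93 between Fosb and Junb and 0.90 between Fos and Fosb. Fosl2 and Jun had an r of -0.22. The genes whose log2 CPM was most like that of Junb were Nfkbia, the NF-κB inhibitor, Dusp1 and Zc3h12a, with r between 0.987 and 0.992. Those most like Fos were Unc45a, Bend3 and Faim (0.978 to 0.987), and those most like Fosb were Champ1, Gm43065 and Gm10505 (0.978 to 0.982). Ccdc9, Tgif2 and Crtc1 were most like Jun (0.971 to 0.980), and Acads, Lypla2 and Gdf11 were most like Fosl2 (0.975 to 0.994). Gm1821, Tm2d2 and Ext1 were most like Jund (0.966 to 0.970), and Atp23, Fibp and Gm10505 were most like Atf3 (0.964 to 0.988). These correlations describe 8 libraries that share replicate numbers and groups, and they carry no test.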

How the data were processed

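RNA was sequenced from 8 libraries in 4 groups. To make the deposited counts, whole numbers of reads per gene with no normalization, the authors ran FastQC and trim_galore on the reads, discarded duplicates by Picard and used htseq-count. The submitters' processing notes name HISAT2 2.0.5, HTSeq and mm10. Removing duplicates from short, highly expressed genes such as Junb may lower their counts. The authors also deposited FPKM values, which are the counts divided by the library total and the gene's exon length.

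The test was edgeR 4.0.16 under R 4.3.3 (TMM, glmQLFit, glmQLFTest), fitted to all 8 libraries with group means and a block for the replicate number. The filterByExpr step, with a minimum count of 10, left out 13054 genes. The study's methods state a paired analysis. Deviations between the replicates correlated between groups. The r was 0.597 between the WT subsets, 0.548 between the Foxp1-deficient subsets and 0.355 to 0.462 across genotypes. The block follows the replicate number alone and does not model a source shared by both subsets of a genotype. The genotype results of rTreg and aTreg cells may therefore not be independent of each other. Standard errors are the log2 fold change divided by the square root of the F statistic, and levels are TMM-normalized CPM. The log2 ratio of a single pair adds 0.5 counts. Counting intervals are exact Clopper-Pearson intervals at 95% on counts summed over both replicates. They ignore the pairing and leave out the spread between replicates. Alternatives used limma 3.58.1 and DESeq2 1.42.0. The steps were tested on simulated counts with known changes. Promoters and their starts are those of RefSeq.

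The members, gene lists and tests were chosen with earlier results of these data known. From each list beside the members, called genes are named by size of change, at most 4 per comparison, and 3 genes most like each member by correlation are named. Bach2 (between WT subsets) and Il1rl1 (between replicates), each the gene of its list called lower, are named outside this rule. Egr1, Egr2 (between replicates), Hsp90aa1, Gzmb, Csf1r, Ms4a1, Cd79a and Cd8b1 were named after their values were seen. Some marker genes are not reported here.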

Additional observations from a re-analysis of the deposited data

How the results depend on the processing

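With the pairing left out (no replicate block), 0 members were called between genotypes in rTreg cells (2 with the block), 0 in aTreg cells (3), 0 between WT subsets (2), 0 between Foxp1-deficient subsets (2) and 0 for the difference of effects (0). Over all 14540 genes tested, that setting called 266, 77, 1342, 1821 and 0 genes, against 814, 586, 1793, 2282 and 48 with the block. In rTreg cells limma-voom, with or without sample weights, median-of-ratios size factors, and log2 FPKM plus 1 or 0.1 each called 1 member, Fosb, and log2 FPKM plus 1 with no filter called 0. In aTreg cells the libraries of the comparison alone and log2 FPKM plus 1 or 0.1 called 1, Jun, and log2 FPKM plus 1 with no filter called 0. Between subsets of either genotype the libraries of the comparison alone and the 3 FPKM settings each called 1, Fosb. The difference of effects gave 1, Jun, with limma-voom, limma-voom with sample weights, DESeq2 and no filter on low counts. Leaving out each library gave 0 to 2 members in rTreg cells, 1 to 3 in aTreg cells, 1 to 2 between WT subsets, 2 between Foxp1-deficient subsets, 0 to 1 for the difference and 5 to 6 between replicates. Without replicate 1 of either Foxp1-deficient group, Fosl2 took the place of Atf3 between Foxp1-deficient subsets. The causes of these changes were not tested.

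Of 762 values of single members under alternatives, 680 kept direction and side of the threshold, 53 lost the call, 9 gained it and 20 changed sign, none of them a called value. The difference of effects of Atf3 was -0.00062 on log2 FPKM plus 1 with no filter. Leaving out single libraries, the genotype change of Atf3 ran from -2.52 to 0.63 in rTreg and from -2.17 to 0.024 in aTreg cells, and the difference of effects ran from -1.05 to 2.10 for Atf3, -0.26 to 0.085 for Fos, -0.053 to 0.32 for Fosb, -0.27 to 0.33 for Fosl2, -0.11 to 0.22 for Junb and -0.12 to 0.043 for Jund. The alternatives for the replicate comparison were added after the data were seen. Depth limits Atf3, with at most 45 counts in a library.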
